A study of Mus musculus with 24 samples.

Results

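The 8 genes described here carry the signal of the erythropoietin receptor and stop it again: the receptor Epor, its kinase Jak2, the transcription factors Stat5a and Stat5b, and the brakes Cish, Socs1, Socs2 and Socs3. They were chosen by symbol, and all 8 were found among the 55414 genes listed in each of 24 RNA sequencing libraries. Epor and Cish lie on chromosome 9, Socs2 on 10, Stat5a, Stat5b and Socs3 on 11, Socs1 on 16 and Jak2 on 19. The libraries were made from LSK cells, the bone marrow fraction that lacks lineage markers, carries Sca-1 and Kit, and holds blood stem cells and multipotent progenitors. The cells were sorted from mouse pups at 21 days of age whose C57BL/6J dams ate either Western diet TD.88137, meant to make the mothers obese, or regular chow 2018SX, the control diet. Dams stayed on their diet before mating, while pregnant and while nursing. The 4 groups were male and female pups of dams on Western diet and male and female pups of dams on chow, with 6 libraries each, and the labels assign 2 libraries of every group to each of 3 batches. The labels identify no dam or litter; the p-values therefore speak of variation from library to library, and some libraries may come from littermates.

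Erythropoietin binds EPOR on committed erythroid progenitors, and the JAK2 kinase held by the receptor then phosphorylates it and STAT5. STAT5A and STAT5B are close homologues that pair, enter the nucleus and bind DNA at the palindrome TTCNNNGAA, where they switch on survival genes and also their own brakes. CISH and the SOCS proteins dock on activated receptors or kinases and end the signal. The same kinase and STATs serve interleukin-3, GM-CSF and growth hormone, so in stem and progenitor cells their transcripts are not particular to the erythroid branch.

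Promoter windows from RefSeq (build GRCm38.p6, 250 bases before and 50 after an annotated start, matched by symbol) were searched for the STAT palindrome TTCNNNGAA, which reads the same on both strands, and for the GATA motif GATAA on either strand (GATAA or TTATC). No match of one motif overlapped a match of the other in these windows. Of the 8 genes 7 had windows, and the windows of Jak2, Socs1, Stat5a and Stat5b held neither motif. The Socs2 promoter is not shown. The windows of the receptor and of the brakes Cish and Socs3 are printed 5′ to 3′ because they held a motif, which stands in capitals.
Epor (chr9:21963527-21963826, minus strand): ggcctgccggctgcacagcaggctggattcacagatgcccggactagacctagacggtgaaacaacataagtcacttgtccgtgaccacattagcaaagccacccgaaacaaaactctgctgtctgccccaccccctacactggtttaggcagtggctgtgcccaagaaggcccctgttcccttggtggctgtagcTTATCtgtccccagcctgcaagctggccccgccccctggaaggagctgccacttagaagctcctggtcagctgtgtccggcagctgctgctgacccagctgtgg
Cish (chr9:107296409-107296708, plus strand): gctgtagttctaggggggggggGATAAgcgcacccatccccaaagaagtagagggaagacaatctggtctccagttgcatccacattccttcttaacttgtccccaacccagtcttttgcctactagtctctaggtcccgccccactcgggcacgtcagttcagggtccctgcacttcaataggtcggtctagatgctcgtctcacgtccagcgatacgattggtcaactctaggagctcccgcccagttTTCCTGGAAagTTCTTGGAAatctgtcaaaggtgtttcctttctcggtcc
Socs3 (chr11:117969317-117969616, minus strand): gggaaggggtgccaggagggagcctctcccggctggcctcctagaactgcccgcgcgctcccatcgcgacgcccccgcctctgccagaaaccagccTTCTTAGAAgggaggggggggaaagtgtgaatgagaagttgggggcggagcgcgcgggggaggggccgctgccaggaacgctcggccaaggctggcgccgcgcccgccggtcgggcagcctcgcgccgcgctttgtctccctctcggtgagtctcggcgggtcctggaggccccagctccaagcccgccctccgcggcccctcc
The Epor window held 1 GATA motif, at bases 197 to 201 of the window. The Cish window held 2 STAT palindromes, TTCCTGGAA at bases 251 to 259 and TTCTTGGAA at bases 262 to 270, and 1 GATA motif at bases 23 to 27. The Socs3 window held 1 STAT palindrome, TTCTTAGAA, at bases 97 to 105. Of 32851 mouse promoter windows of this length, 8.30% held at least 1 STAT palindrome, 0.457% held 2 or more, and 25.4% held a GATA motif. A match is a run of letters, and binding was not measured.

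Libraries held 38057263 to 51581968 counts in genes, and 19616 genes had enough counts to be tested. On the first principal component the female controls numbered 5 and 6, from batch 3, lay away from all others (-91.0 and -72.4, against -29.3 to 41.8). Levels are given as CPM, the counts scaled to library size corrected by TMM. Fold changes and p-values are from edgeR's quasi-likelihood test on all 24 libraries with batch as a term, adjusted by Benjamini-Hochberg over all genes tested, and a gene is said to rise or fall where the adjusted p is under 0.05. The whole marker lists of this report describe the sort: the LSK and stem cell list, with Kit and Ly6a (Sca-1), summed to 1403.6 to 2869.4 CPM in Western-diet libraries and 1122.8 to 2428.9 CPM in control libraries. The erythroid progenitor list was also well detected, at 1399.3 to 3108.4 CPM in Western-diet libraries and 1914.2 to 7126.0 CPM in control libraries. Which of the sorted cells carried these transcripts was not measured.

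Per kilobase of exon, the receptor was on average the most abundant of the 8 transcripts. A gene's length here merges the exons of all its annotated transcripts, from 1989 bases for Epor to 9531 for Socs2. The order depends on these lengths. Each length was the same in every library, so agreement between libraries does not bear on it. Epor averaged 32.6 CPM per kilobase over the 24 libraries, Socs3 26.6, Stat5b 19.8, Stat5a 14.3, Jak2 6.19, Socs2 2.03, Cish 1.44 and Socs1 0.53. The upper end of this order was not settled, since Epor exceeded Socs3 in 13 and Socs3 exceeded Stat5b in 15 of 24 libraries. Lower down the order was steadier: Stat5b exceeded Stat5a in 23, Stat5a exceeded Jak2 in 24, Jak2 exceeded Socs2 in 24, Socs2 exceeded Cish in 21 and Cish exceeded Socs1 in 23 libraries. The ratio of Stat5b to Stat5a per kilobase ran from 0.94 to 1.89. Socs1, with 16 to 171 counts per library, was the least precisely measured.

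**Figure D1:**
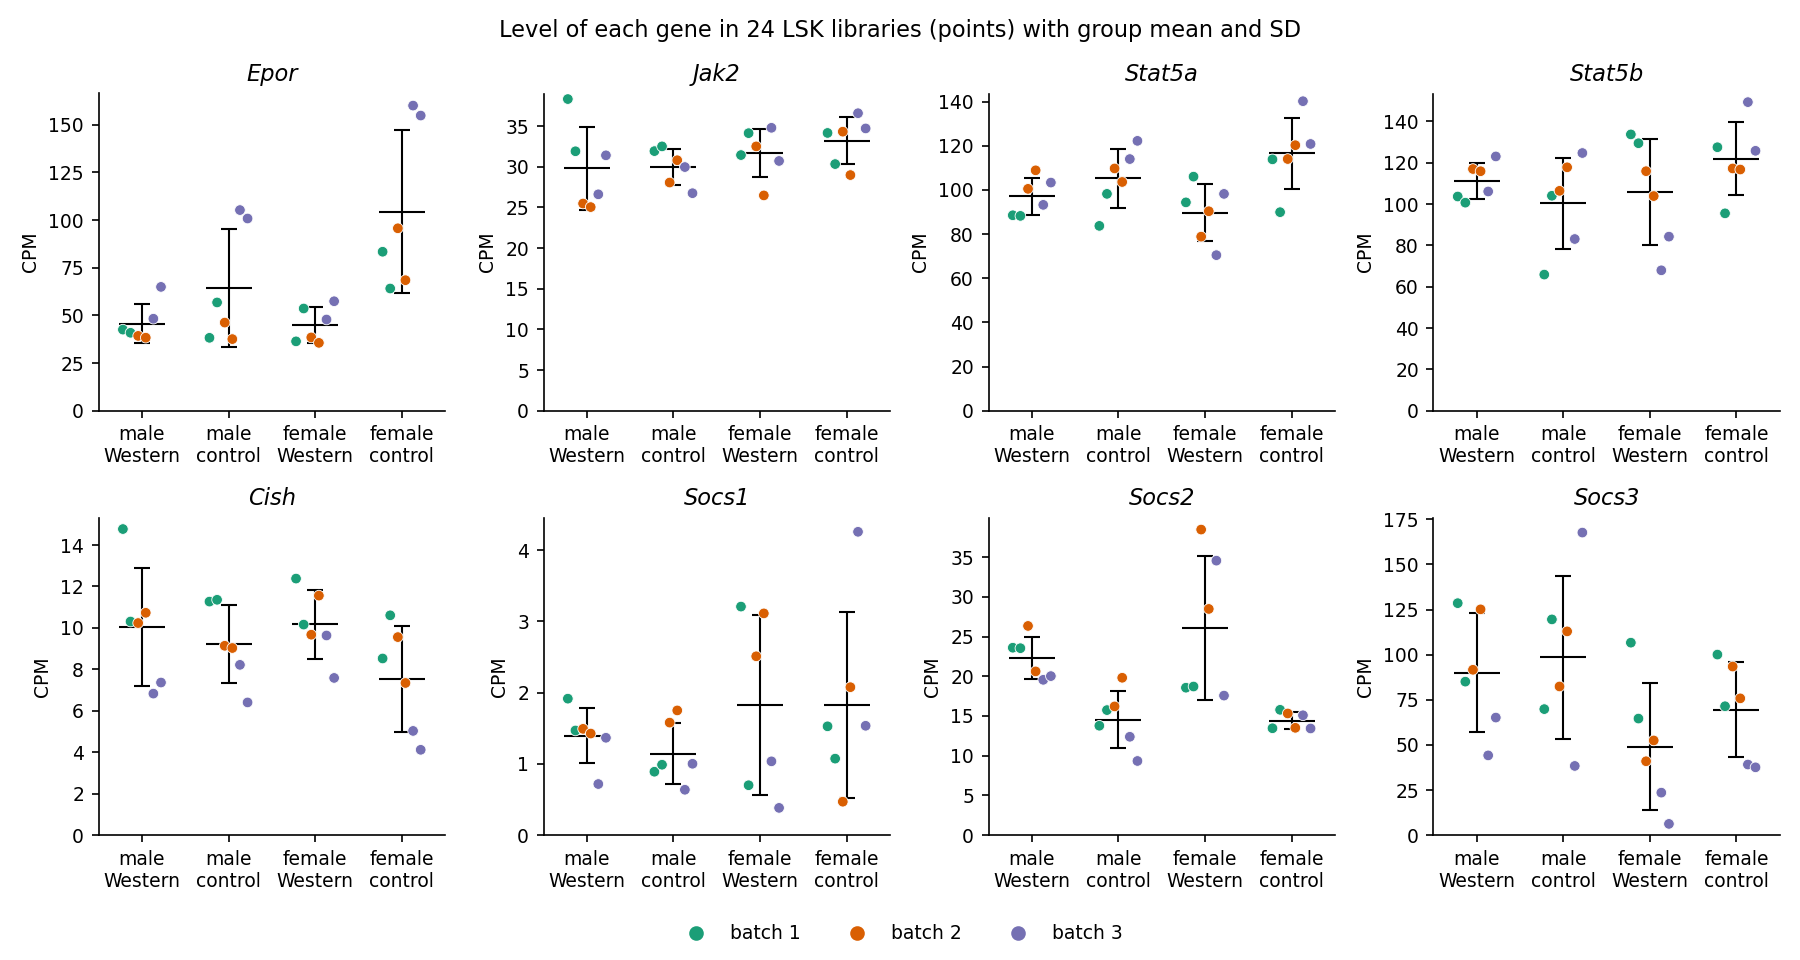
Level of each of the 8 genes in CPM (vertical axes) in the 24 LSK libraries, by sex and maternal diet; points are libraries coloured by batch, and bars give the mean and SD of 6 libraries. Epor is highest in the 2 female control libraries of batch 3 (160 and 155 CPM), and Socs2 is higher in every female Western-diet library than in any female control.

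In female pups, maternal Western diet went with less receptor and less Stat5a and with more Cish and Socs2. Epor fell 2.21-fold, Stat5a 1.29-fold, Socs2 rose 1.78-fold and Cish 1.40-fold, while Jak2, Stat5b, Socs1 and Socs3 did not pass the test. So 2 of the 8 genes rose and 2 fell, where 2.2% of all tested genes rose and 3.22% fell. The median log2 fold change of the 8 was -0.17, beside 0.03 over all genes.

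Epor in female pups ranged from 35.6 to 57.4 CPM with a median of 43.1 in Western-diet libraries, and from 64.1 to 160 CPM with a median of 89.5 in control libraries. The highest Western-diet value was thus under the lowest control value, a separation seen downward in 0.714% of all tested genes. On the log2 scale the difference was -1.14 (SE 0.16, adjusted p = 0.00015), which ranked 26th of 19616 genes by p. In bulk RNA, fewer cells of a type and less RNA per cell cannot be told apart. An exact permutation of log2 CPM within batch gave p = 0.00926 (two-sided), the smallest that its arrangements allow, and 0.0494 adjusted over 16 tests.

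The erythroid progenitor list moved with Epor in these females. Its summed level was 1399.3 to 3108.4 CPM in Western-diet libraries and 2486.1 to 7126.0 CPM in controls. Of its 13 genes tested of 14, 9 fell and none rose, with a median log2 fold change of -1.33. Icam4 had no counts in any library. The list was chosen with earlier results of these data known, so its count is not an independent test. Car1, a carbonic anhydrase of early erythroid cells, fell 2.83-fold, and on the log2 scale Tspan33 fell by 1.53, Aqp1, a water channel of red cells, by 1.37 and Ermap, a red cell membrane protein, by 1.39. Of 12 mature erythroid genes matched of 13, 6 fell and none rose (median -0.98), and their sum was 748.3 to 2935.9 CPM in Western-diet females and 1387.0 to 8813.2 CPM in control females. With the mean of the erythroid progenitor list as a covariate, an alternative added after the data were seen, the Epor difference was -0.10 (SE 0.17, adjusted p = 0.952) and that of Socs2 0.42 (SE 0.33, adjusted p = 0.900). In edgeR's test with that covariate 0 of all tested genes passed, the 8 among them, and 0 of the 8 had an unadjusted p under 0.05. The covariate lay at -0.01 or lower in every Western-diet female and at 0.0028 or higher in every control female. Epor followed it at r = 0.97 over the 24 libraries. This fit therefore cannot tell a diet difference apart from a difference in the list.

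Jak2, the kinase, did not pass. It ranged from 26.5 to 34.8 CPM (mean 31.7 ± 2.98, SD, n = 6) in Western-diet females and from 28.97 to 36.6 CPM (mean 33.2 ± 2.90) in control females, and the groups overlapped. The log2 fold change was -0.07, with a 95% interval of -0.26 to 0.12 (adjusted p = 0.752).

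Stat5a ranged from 70.5 to 106 CPM (median 92.4) in Western-diet females and from 89.9 to 140 CPM (median 117) in control females. The groups overlapped, but all 6 Western-diet libraries lay below the control mean. The log2 fold change was -0.37 (SE 0.11, adjusted p = 0.0493), just under the threshold, and the exact permutation gave p = 0.0278 (0.0889 adjusted). This call is fragile: it was lost in 18 of the 24 fits that left out 1 library. For Stat5b, its homologue, the range was 67.9 to 134 CPM (median 110) in Western-diet and 95.5 to 149 CPM (median 122) in control females, with a log2 fold change of -0.21 (SE 0.16, adjusted p = 0.486).

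Among the brakes, Socs2, which restrains growth hormone signalling and is itself a STAT5 target, rose most. It ranged from 17.6 to 38.5 CPM (median 23.6) in Western-diet females and from 13.4 to 15.8 CPM (median 14.3) in control females. The groups did not overlap, which held upward for 0.469% of all tested genes. The 6 control libraries were tightly grouped, whereas 3 Western-diet libraries stood at 28.5 CPM or more and the other 3 at 18.7 or less. Its log2 fold change was 0.83 (SE 0.17, adjusted p = 0.00516), and the exact permutation gave p = 0.00926 (0.0494 adjusted).

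Cish, the STAT5-induced brake that docks on EPOR itself, ranged from 7.59 to 12.4 CPM (median 9.92) in Western-diet females and from 4.12 to 10.6 CPM (median 7.93) in control females. All 6 Western-diet libraries lay above the control mean, and the groups overlapped. The log2 fold change was 0.49 (SE 0.14, adjusted p = 0.0411; exact permutation p = 0.0278, 0.0889 adjusted). Without both female controls of batch 3, which had the 2 lowest Cish levels (5.03 and 4.12 CPM), it was 0.33 (adjusted p = 0.382), and 15 of the 24 fits without 1 library lost the call.

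Socs1 and Socs3, the brakes that act on JAK kinases directly, did not pass. Socs1 ranged from 0.38 to 3.21 CPM (median 1.77) in Western-diet females and from 0.47 to 4.26 CPM (median 1.53) in control females, with a log2 fold change of -0.13 and a 95% interval of -1.05 to 0.79 (adjusted p = 0.918). Socs3 ranged from 6.25 to 107 CPM (median 46.7) in Western-diet females and from 37.6 to 100 CPM (median 73.6) in control females. The lowest value, in Western-diet library 6 of batch 3, was 261 counts. The log2 fold change of Socs3 was -0.63 (SE 0.38, adjusted p = 0.355). The exact permutation, on a difference of mean log2 CPM of -0.85, gave p = 0.037 (0.0988 adjusted). The immediate early genes, which include Fos, Jun and Egr1 and respond fast to stimulation and handling, summed to 2286.4 to 10788.4 CPM in Western-diet females against 4549.7 to 13127.4 CPM in control females, and none of 10 passed the test (2 had an unadjusted p under 0.05). Socs3 varied with their mean over the 24 libraries (r = 0.77, Spearman rho = 0.71, permutation p = 1e-05, the smallest 100000 permutations can give, and 0.00019; 3e-05 and 0.00038 adjusted over 6 marker relations). Within batches 1, 2 and 3 that r was 0.82, 0.59 and 0.87, and it was 0.60 without the 2 libraries farthest from the Socs3 median. Shared differences of group and batch enter the permutation p. The part of handling in the Socs3 values was not tested.

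**Figure D2:**
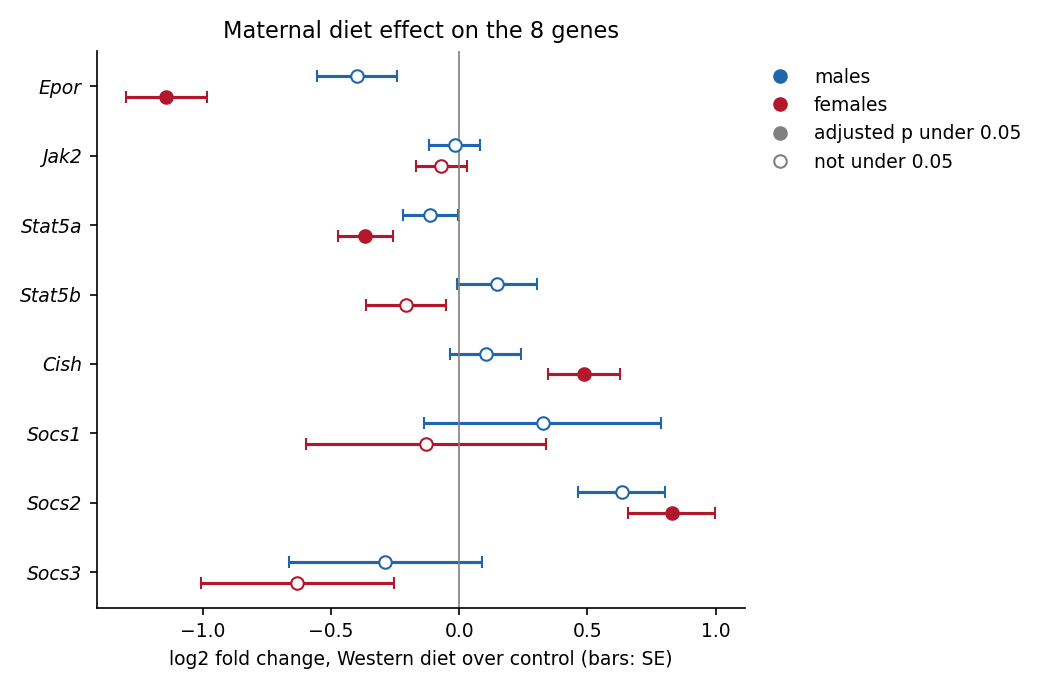
Log2 fold change of Western diet over control for each gene (horizontal axis; bars are SE), in males (blue, upper) and females (red, lower), with filled points for an adjusted p under 0.05. Epor and Socs2 lie farthest from 0 among the filled points, on opposite sides.

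In male pups none of the 8 genes passed the test, where 0.0102% of all tested genes did. Epor and Socs2 had an unadjusted p under 0.05. With other tools, DESeq2 called none of the 8 among 99 genes in all, and limma-voom called 1, Socs2, among 132 genes in all. The median log2 fold change of the 8 was 0.04, beside 0.02 over all genes.

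Socs2 ranged from 19.6 to 26.3 CPM (median 22.1) in Western-diet males and from 9.34 to 19.8 CPM (median 14.8) in control males. All 6 Western-diet males lay above the control mean, and the ranges overlapped through 1 control library, at 19.8 CPM. Their log2 fold change was 0.63 (SE 0.17, unadjusted p = 0.00103, adjusted p = 0.239), and the exact permutation gave p = 0.00926 (0.0494 adjusted over 16 tests).

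Epor ranged from 38.3 to 64.9 CPM (median 41.7) in Western-diet males and from 37.5 to 105 CPM (median 51.5) in control males. The high end of the controls was its 2 batch 3 libraries, at 105 and 101 CPM, and the other 4 overlapped with the Western-diet group. The log2 fold change was -0.40 (SE 0.16, unadjusted p = 0.0179, adjusted p = 0.474). The erythroid progenitor list summed to 1599.8 to 2568.5 CPM in Western-diet males and 1914.2 to 5187.3 CPM in control males, and 1 of its 13 tested genes, Car1, fell. The mature erythroid list summed to 1019.8 to 3316.4 CPM in Western-diet males and 2725.5 to 7164.4 CPM in control males, and none of its 12 genes passed, although all 12 had an unadjusted p under 0.05.

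The remaining 6 genes differed less between the male groups. Stat5a had a log2 fold change of -0.11 (SE 0.11, adjusted p = 0.799), with medians of 96.9 CPM in Western-diet males against 107 CPM in control males. Stat5b stood at 0.15 (SE 0.16), Jak2 at -0.02 (SE 0.10), Cish at 0.10 (SE 0.14), Socs1 at 0.33 (SE 0.46) and Socs3 at -0.29 (SE 0.38).

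Averaged over both sexes, Epor fell by 0.77 (SE 0.11, adjusted p = 0.00015) and Socs2 rose by 0.73 on the log2 scale (SE 0.12, adjusted p = 0.00049). Of all tested genes 2.19% rose and 3.51% fell in this average. Stat5a (-0.24, adjusted p = 0.0673) and Cish (0.29, adjusted p = 0.0775) missed the threshold.

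The diet effect on Epor was -0.40 in males and -1.14 in females. The male minus female difference was 0.74 (SE 0.22, unadjusted p = 0.00246), but its adjusted p was 0.589, and 0% of all tested genes passed that comparison. None of the 8 passed it in edgeR, DESeq2 or limma-voom, and 1 of them, Epor, had an unadjusted p under 0.05. For Socs2 the difference of the diet effects was -0.19, with a 95% interval of -0.66 to 0.27.

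Sex itself called none of the 8 in edgeR, and 2 of them among control pups and 1 among Western-diet pups had an unadjusted p under 0.05. Among control pups, where 0.112% of all genes passed, Epor had a median of 51.5 CPM in males and 89.5 CPM in females, a log2 fold change of -0.73 (SE 0.16, unadjusted p = 9.3e-05, adjusted p = 0.0653). DESeq2 and limma-voom called this difference (adjusted p = 0.0048 and 0.0256), among 276 and 132 genes called in all. Cish stood 0.33 higher in control males than in control females (SE 0.14, unadjusted p = 0.0259, adjusted p = 0.312). Among Western-diet pups, where 0.0816% passed, Epor had a log2 fold change of 0.01 (SE 0.16), and Socs3 had the largest difference, 1.02 (SE 0.38, unadjusted p = 0.0134, adjusted p = 0.717). DESeq2 and limma-voom called none among Western-diet pups.

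Some of these genes differed between batches. Epor, Cish and Socs3 differed among the 3 batches given group, where 24.2% of all tested genes did. Epor averaged 51.96, 49.9 and 92.4 CPM over the 8 libraries of batches 1, 2 and 3. Cish averaged 11.2, 9.66 and 6.90 CPM and Socs3 93.2, 84.3 and 52.7 CPM, so batch 3 was highest for the receptor and lowest for both brakes. The largest difference between 2 batches was 0.84 (adjusted p = 0.00013), 0.72 (0.00053) and 1.10 (0.0476) on the log2 scale for Epor, Cish and Socs3. Socs3 lost its call in edgeR's batch test with DESeq2 size factors (adjusted p = 0.0566) and without both female controls of batch 3 (0.190).

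Because every batch holds all 4 groups, the diet difference can be read within each batch, on 2 libraries per group. The mean log2 CPM of Epor differed by -0.16, -0.10 and -0.88 in males of batches 1, 2 and 3, and by -0.73, -1.13 and -1.59 in females. Its sign was the same in all 6 combinations of sex and batch, and its size was largest in batch 3 for both sexes. Socs2 differed by 0.68, 0.38 and 0.88 in males and by 0.35, 1.20 and 0.79 in females, again with one sign in all 6. Cish differed by 0.12, 0.21 and -0.03 in males and by 0.24, 0.33 and 0.90 in females. Stat5a was below control in each batch, with differences of -0.04, -0.03 and -0.27 in males and -0.02, -0.47 and -0.65 in females, so batch 1 showed almost none of it. Socs3 differed by 0.19, 0.15 and -0.58 in males and by -0.03, -0.86 and -1.66 in females.

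**Figure D3:**
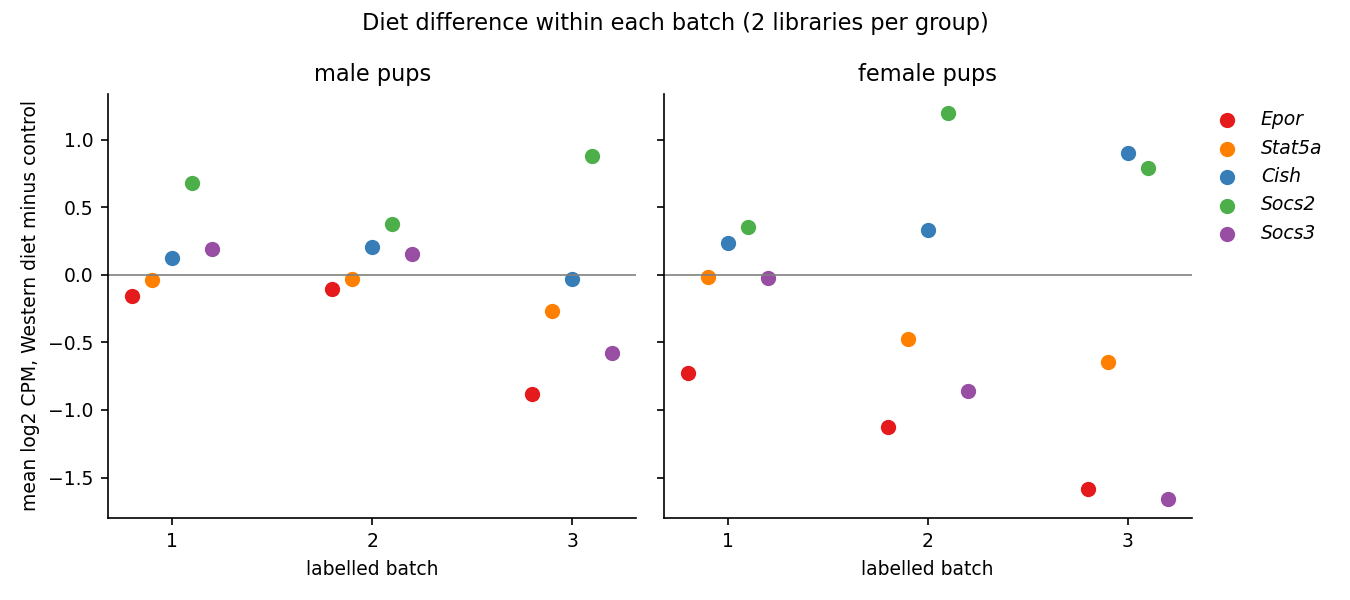
Diet difference of mean log2 CPM (vertical axis, Western diet minus control) within each labelled batch (horizontal axis), in males (left) and females (right), for 5 of the 8 genes; each point compares 2 with 2 libraries. Epor lies below 0 and Socs2 above 0 in all 6 combinations of sex and batch, and the female Epor difference is -0.73 in batch 1 and -1.59 in batch 3.

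Across the 24 libraries the receptor and Stat5a varied together, and both varied against Cish and Socs2. Of the 28 pairs among the 8 genes, 6 had a correlation of log2 CPM with an adjusted permutation p under 0.05 over the 28. Epor with Stat5a gave r = 0.72 (rho = 0.68, permutation p = 8e-05, 0.00084 adjusted), and Stat5a with Stat5b gave r = 0.64 (rho = 0.62, permutation p = 0.00083, 0.00465 adjusted). The inverse pairs were Epor with Cish (r = -0.78, rho = -0.72, permutation p = 1e-05, 0.00028 adjusted), Stat5a with Socs2 (r = -0.72, rho = -0.70, permutation p = 9e-05, 0.00084 adjusted), Epor with Socs2 (r = -0.65, rho = -0.70, permutation p = 0.00057, 0.00399 adjusted) and Stat5a with Cish (r = -0.62, rho = -0.64, permutation p = 0.00124, 0.00579 adjusted). Spearman's rho passed for the same 6 pairs, with adjusted permutation p from 0.00196 to 0.00742. Each of the 6 kept its sign within each batch.

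Leaving out the 2 libraries farthest from the median of the first gene gave r = 0.61 for Epor with Stat5a, 0.42 for Stat5a with Stat5b, -0.57 for Epor with Cish, -0.69 for Stat5a with Socs2, -0.69 for Epor with Socs2 and -0.60 for Stat5a with Cish. Within batches 1, 2 and 3, r was 0.73, 0.62 and 0.88 for Epor with Stat5a and -0.68, -0.52 and -0.78 for Epor with Cish. For Epor with Socs2 it was -0.52, -0.70 and -0.69, and for Stat5a with Socs2 -0.32, -0.96 and -0.84. For Stat5a with Stat5b it was 0.75, 0.22 and 0.81, and for Stat5a with Cish -0.62, -0.52 and -0.74. On residuals from a linear fit with group and batch as additive terms, Epor with Cish stood at r = -0.19 (permutation p adjusted over the 28 pairs 0.517), Epor with Socs2 at -0.31 (0.279) and Stat5a with Cish at -0.43 (0.119), while Stat5a with Socs2 gave -0.71, Stat5a with Stat5b 0.76 and Epor with Stat5a 0.67. Another 4 pairs had a permutation p, adjusted over the 28 pairs, under 0.05 on the residuals alone. They were Stat5b with Socs3 (r = 0.62, 0.00875), Epor with Stat5b (0.55, 0.0262), Stat5b with Cish (-0.55, 0.0262) and Jak2 with Socs2 (0.52, 0.0373). The permutations of residuals made no allowance for the group and batch terms already fitted, so their p-values run too small. These 4 pairs are therefore only a description. Socs1 was in none of the pairs under 0.05 either way, and Jak2 in none of the 6 without the fit.

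**Figure D4:**
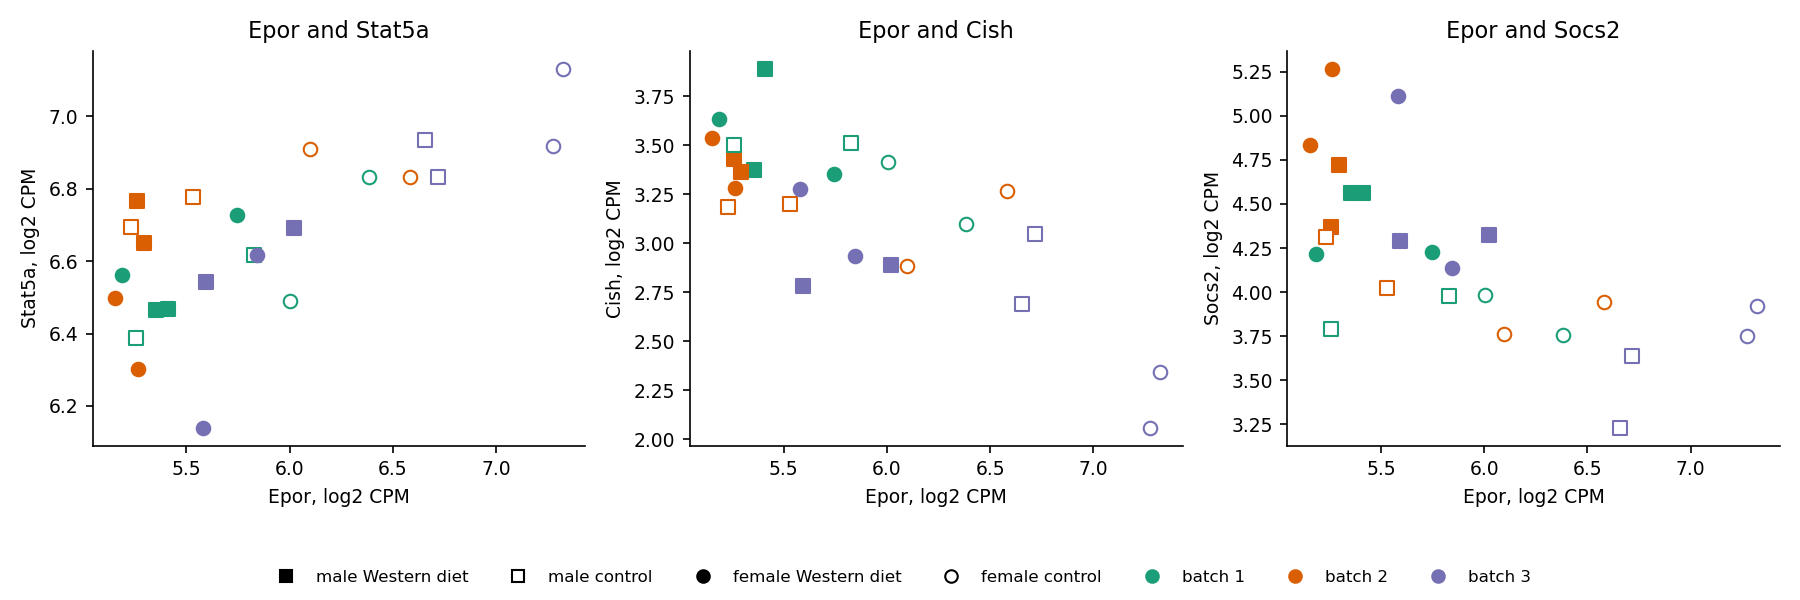
Log2 CPM of Epor (horizontal axis) against Stat5a, Cish and Socs2 (vertical axes) in 24 libraries; filled symbols are Western-diet and open symbols control pups, squares males and circles females, coloured by batch. Epor rises with Stat5a (r = 0.72) and runs against Cish (r = -0.78) and Socs2 (r = -0.65), with the 2 female controls of batch 3 at the far right.

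Beside the erythroid progenitor markers, Epor varied closely with their mean (r = 0.97, rho = 0.92, permutation p = 1e-05 for each, 3e-05 adjusted over 6 marker relations). Within batches 1, 2 and 3 this r was 0.91, 0.95 and 0.99. The same mean gave r = 0.73 with Stat5a (rho = 0.68, permutation p = 4e-05, 6e-05 adjusted), -0.77 with Cish (rho = -0.65, permutation p = 4e-05, 6e-05 adjusted) and -0.72 with Socs2 (rho = -0.85, permutation p = 7e-05, 8.4e-05 adjusted). Without the 2 libraries farthest from each gene's median, these 4 values of r were 0.95 for Epor, 0.72 for Stat5a, -0.54 for Cish and -0.67 for Socs2. By batch they were 0.60, 0.77 and 0.87 for Stat5a, -0.75, -0.59 and -0.77 for Cish and -0.68, -0.86 and -0.69 for Socs2. The permutations of the 6 marker relations moved libraries across groups and batches. Shared differences of diet, sex and batch therefore enter these p-values. No r of these relations was computed with group and batch removed. Socs2 showed little relation with the mean of the LSK and stem cell markers (r = 0.25, rho = 0.35, permutation p = 0.23 and 0.0937), at 0.26, -0.16 and 0.27 within batches and 0.25 without the 2 farthest libraries.

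The genes whose log2 CPM was most like each of the 8 over the 24 libraries differed from one to the next, as a description with no test. Nearest to Epor were Smim1, which in humans carries the Vel blood group antigen, Atp7b, a copper transporter, and Emc9, at r of 0.98, 0.98 and 0.97. Nearest to Cish were the transcription factor Runx2 (0.88), Rnf150 (0.88) and the transcription factor Sox4 (0.87). Nearest to Socs2 were Itsn2 (0.88), Sltm (0.84) and Myb (0.84), a transcription factor of immature blood cells. Socs3 was most like Slc27a2 (0.91), the cytokine receptor Flt3 (0.88) and Fam43a (0.88), and Stat5a most like Sppl2b (0.92), the hexokinase Hk1 (0.92) and Rnf123 (0.92). Stat5b was nearest to Zscan25 (0.96), Zfp687 (0.95) and Mib2 (0.95), Socs1 to Gch1 (0.89), F8a (0.88) and Zbtb11os1 (0.87), and Jak2 less closely to Fam117b (0.77), Plcl2 (0.76) and Thap6 (0.75). Not every likeness held within batches. In batch 2 alone r was 0.40, 0.003 and 0.65 for Stat5b with its 3 genes and 0.30, 0.46 and 0.35 for Cish. For Epor it was 0.98, 0.98 and 0.94 there.

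Other genes of the pathway were counted in 5 lists in the female comparison, where 2.2% of all tested genes rose and 3.22% fell. These lists too were chosen with earlier results of these data known. Of 16 further cytokine receptors that use JAK2 or STAT5, 1 rose and none fell (median 0.08). It was Csf2rb, the shared signalling chain for GM-CSF and interleukin-3, at 52.3 to 92.9 CPM (median 73.1) in Western-diet and 28.5 to 68.0 CPM (median 53.7) in control females (log2 fold change 0.59, SE 0.13, adjusted p = 0.00682). Kit, the stem cell factor receptor, stood at -0.08 (adjusted p = 0.839). None of the 8 other JAKs and STATs passed edgeR's test (median -0.26; 4 had an unadjusted p under 0.05).

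None of 16 other brakes passed in females (median 0.13; 3 had an unadjusted p under 0.05). Averaged over both sexes, 2 of them rose and none fell: Cbl, a ubiquitin ligase that marks receptors for removal (0.28, SE 0.07, adjusted p = 0.0251), and Socs5 (0.39, SE 0.12, adjusted p = 0.0465). This count is fragile: over 39 alternative fits it ran from 0 to 2, and it was lower in 31 of them. Among 11 tested adaptors and partners of the receptor, 2 fell and none rose in females (median -0.06). Tfr2, the second transferrin receptor, which associates with EPOR, ranged from 104 to 192 CPM (median 130) in Western-diet and from 158 to 400.4 CPM (median 236) in control females (log2 fold change -0.83, SE 0.17, adjusted p = 0.00597). Gab1, a docking protein downstream of receptors, had -0.86 (SE 0.22, adjusted p = 0.0205), with medians of 18.8 CPM in Western-diet females against 34.9 CPM in control females. Epo, the hormone, had no counts in any library.

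Of 16 genes known as STAT5 targets other than the brakes, 1 rose and 2 fell in females, and their median was 0.06. Serpina3g, a protease inhibitor of a family with near-identical members whose reads can be shared, rose 2.30-fold (SE 0.19 on the log2 scale, adjusted p = 0.0006), with medians of 66.0 CPM in Western-diet females against 35.2 CPM in control females. Gfi1b, a repressor needed for red cell and platelet formation that also belongs to the erythroid progenitor list, fell 2.35-fold (adjusted p = 0.00071), with medians of 82.4 CPM in Western-diet females against 192 CPM in control females. Erfe, the erythroferrone gene that erythroblasts switch on after erythropoietin, fell by 1.78 on the log2 scale (SE 0.46, adjusted p = 0.0239), at 0.16 to 0.91 CPM in Western-diet females against 0.44 to 8.44 CPM in control females, with overlap and 7 to 339 counts. The survival genes Bcl2l1 (0.34, adjusted p = 0.453), Mcl1 (0.36, 0.229) and Pim1 (0.38, 0.366) and the cell cycle gene Ccnd2 (0.41, 0.0775) did not pass.

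In males, none of these 5 pathway lists had a gene that passed edgeR's test; at an unadjusted p under 0.05 there were 3 receptors, 1 other JAK or STAT, 1 other brake, 1 adaptor and 1 STAT5 target. That target was Gfi1b, at -0.69 (adjusted p = 0.282).

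**Figure D5:**
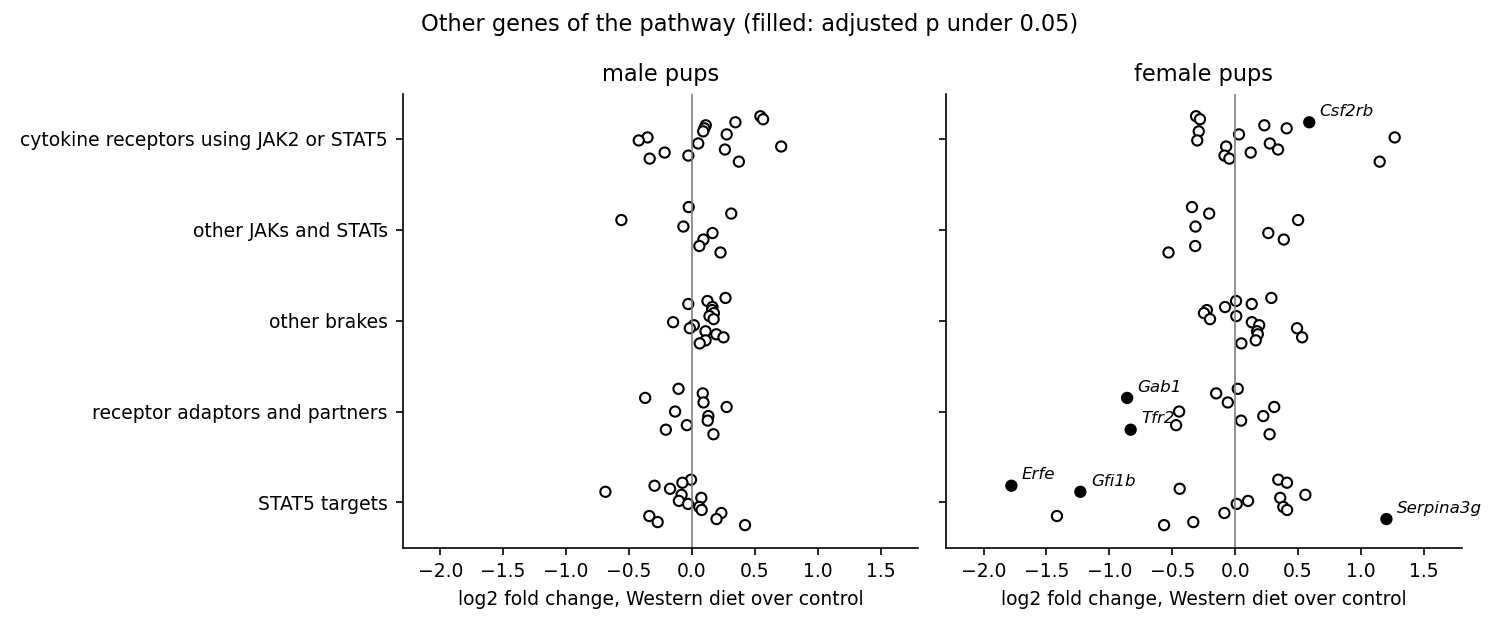
Log2 fold change of Western diet over control (horizontal axis) for the genes of 5 pathway lists (rows; 1 point per gene), in males (left) and females (right); filled points have an adjusted p under 0.05. In females 6 genes are filled, Csf2rb and Serpina3g to the right and Tfr2, Gab1, Gfi1b and Erfe to the left, and in males none is.

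Markers of other cells that a sort can hold were counted over the whole lists in the female comparison. None of 10 neutrophil and monocyte genes passed (summed level 3833.6 to 12420.4 CPM in Western-diet females against 2453.4 to 5802.6 CPM in control females), but 9 of the 10 were positive, with a median log2 fold change of 0.60, and 4 had an unadjusted p under 0.05. None of 7 megakaryocyte (median -0.14; 2 with an unadjusted p under 0.05), 8 macrophage (0.07; 0) or 8 endothelial and stromal genes (-0.07; 2) passed edgeR's test. Of 9 B cell genes 3 rose, with sums of 518.3 to 2208.7 CPM in Western-diet females against 374.6 to 1179.2 CPM in control females. All 9 were positive, with a median of 0.50, and 5 had an unadjusted p under 0.05. Of 8 T and NK cell genes 1, Nkg7, rose (median 0.16, 1 with an unadjusted p under 0.05). Of 10 LSK and stem cell genes 2 rose, Mecom (0.55) and Meis1 (0.52), both transcription factors of stem cells. In that list 8 of the 10 were positive, with a median of 0.50, and 7 had an unadjusted p under 0.05. What part these cells had in the values of the 8 genes was not tested.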

How the data were processed

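Files of 24 libraries of polyA RNA from sorted LSK cells were used, with group, replicate number and batch from the labels. Per the labels' protocols, libraries used RNA of an integrity number over 8.0 and a low-input kit that does not mark strand, so reads of a gene and an antisense partner cannot be told apart. The deposited values are raw counts per gene. The submitters' processing notes name the mouse build GRCm39 and STAR, HTSeq, cutadapt, FastQC and DESeq2. Versions, annotation and strand setting are not given. Lines that name no gene held 31.0 to 39.3% of a library and stayed out. No pair of libraries agreed within sampling noise (lowest chi-square per degree of freedom 13.6).

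The counts were fitted with edgeR 4.0.16 in R 4.3.3 (filterByExpr by group, TMM factors 0.932 to 1.05, robust quasi-likelihood fit, common biological coefficient of variation 0.261) on all 24 libraries, with group and batch as terms. The SE of a log2 fold change is its size over the root of F, and a 95% interval is 1.96 SE either side. Log2 CPM used a prior count of 2. Exon lengths are those of an annotation of the older build GRCm38, as are the promoter windows, so lengths may differ from the authors' annotation. Alternatives used DESeq2 1.42.0 and limma 3.58.1, among others. The 8 genes and all lists were chosen with earlier results of these data known. Genes named beside the 8 are those of the pathway lists that passed in a diet comparison, up to 4 of each marker list with the smallest p in females, and the 3 most like each gene; Kit, Bcl2l1, Mcl1, Pim1, Ccnd2 and the male Gfi1b value were chosen after their values were seen. On simulated counts of the female comparison (19320 genes) the fit recovered 18, 48, 84 and 92% of genes changed 1.5-, 2-, 3- and 4-fold, with 7 false calls. The simulation gave each gene 1 mean with no batch or other group effect, and changed 50 random genes of any level at each fold. These shares need not hold for the real comparison or for the 8 genes.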

Additional observations from a re-analysis of the deposited data

Results flagged for a closer look

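Epor in Western-diet males was set apart by 1 library. Library 6 of that group, of batch 3, had 64.9 CPM, against 38.3 to 48.2 CPM in the other 5, and its gap to the next library was 0.626 of the whole range of the group, just above the 95% critical value for 6 libraries (0.625). It was the only such library among 32 combinations of gene and group, and chance gives about 1 in 20.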

How the results depend on the processing

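Over the alternatives tried (another normalization, no or a stricter filter, DESeq2, limma-voom, other terms and subsets, and each library left out), the falls of Epor and the rises of Socs2 in females kept their direction in every one. In females 4 of the 8 genes passed. The count was 2 (Epor and Socs2) with limma-voom, without a batch term, without both female controls of batch 3, and with the replicate number as a block in place of batch, 1 (Epor) without batch 2, without batch 3 or with the fit restricted to the groups compared, and 0 in batch 1 alone, in batch 2 alone and with the erythroid progenitor covariate (added after the data were seen); over all genes these 3 fits called 0, 22 and 0, against 432 higher and 632 lower as reported. Without batch 2, without batch 3 and with the 2 groups, 297, 146 and 358 genes were called in all. Called in all were 730 with limma-voom, 404 without a batch term, 154 without both female controls of batch 3 and 827 with the block. In batch 3 alone Socs2 (0.85, adjusted p = 0.089) and Stat5a (-0.64, 0.0576) lost their calls and Stat5b gained one (-0.87, 0.0348). It was 2 to 4 with 1 library left out, and Epor and Socs2 passed in all 24 such fits. Averaged over both sexes 2 passed, against 4 with DESeq2 (Epor, Socs2, Stat5a and Cish), 0 in batch 1 alone, batch 2 alone and with the covariate, and 2 to 3 with 1 library left out. Over all genes this average called 1784 with DESeq2, 0 in batch 1 alone, 1 in batch 2 alone and 0 with the covariate. As reported it called 429 higher and 689 lower. In males the count of 0 became 1 (Socs2) with no filter and with limma-voom, and stayed 0 to 0 with 1 library left out. Over all genes 380 were called in males with no filter and 132 with limma-voom, against 2 as reported. For sex in controls, 0 became 2 (Epor and Socs3) with no filter, 1 (Epor) with DESeq2, limma-voom or only the 2 groups, and 0 to 1 with 1 library left out. Called in all for sex in controls were 1296 with no filter, 276 with DESeq2, 132 with limma-voom and 111 with the 2 groups. As reported there were 22. Without filtering, 1 of the 8 passed for sex in Western-diet pups (Socs3), among 283 genes in all against 16 as reported. For the difference of the diet effects 1 of the 8 passed (Epor), among 572 in all against 0 as reported. Without filtering Socs3 also passed for diet in females (-0.64) and in the average (-0.48). Stat5a (adjusted p = 0.081) and Cish (0.191) then lost their calls in females. The causes of these changes were not tested beyond fewer libraries in the subsets.

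With group means removed, same-numbered libraries of different groups had r of -0.25 to 0.37 over 36 pairs. Of these 25 were over 0.1, and 1 was over 0.1 with batch removed too. Same-numbered libraries were not compared with the others of their batch. Whether they pair therefore cannot be told, and the block is a description. Under it Stat5a was -0.37 (adjusted p = 0.0707) and Cish 0.48 (0.0603) in females.

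Reversals touched genes with no call, apart from Stat5a under the covariate (0.16 in females, 0.15 averaged). Under the covariate Jak2 was 0.11 and 0.085, Stat5b 0.39 and 0.41, Socs3 0.28 and 0.24 in females and averaged, and Socs1 0.94 in females. In batch 1 alone Jak2 was 0.024 in females, 0.12 in males and 0.074 averaged, Stat5b 0.24 in females and 0.25 averaged, Socs1 0.60 in females, and Socs3 0.17 in males and 0.085 averaged. In batch 2 alone Socs1 was 1.13 in females and -0.19 in males and Socs3 0.15 in males. In batch 3 alone Cish (-0.064) and Jak2 (0.011) reversed in males, and Socs1 averaged -0.86. Without batch 1 Socs1 averaged -0.24. Without batch 2 it averaged -0.085 and Jak2 was 0.058 in males. Without batch 3 Stat5b was 0.087 in females and 0.12 averaged, Socs1 0.88 in females and Socs3 0.16 in males. Without the female controls of batch 3 Stat5b averaged 0.033 and Socs1 was 0.67 in females, and without a batch term Socs1 was 0.0095. With 1 library left out, Jak2 in males ran from -0.094 to 0.015, Socs1 from -0.52 to 0.38 in females and -0.085 to 0.35 averaged, Socs3 in males from -0.46 to 0.29 and Stat5b averaged from -0.095 to 0.029. Socs1 had the fewest counts of the 8, with 16 to 171 per library.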
